A study of Mus musculus with 9 samples.

Results

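Genes for complement components and receptors were followed in a mouse cell culture given brain-derived extracellular vesicles (BDEV), small lipid-enclosed parcels shed by cells. The set held 9 named genes of 24318 in the tables, found by their symbols: C1qa, C1qb, C1qc, C3, Cfb, Cfp, Cd55, C3ar1 and C5ar1. All 9 were listed in both tables. PolyA-selected RNA was sequenced from 9 libraries, with 3 in each of 3 groups. Vehicle libraries received no vesicles, CON-BDEV libraries were given vesicles with a control name, and SE-BDEV libraries vesicles named for status epilepticus, in which seizures do not stop by themselves. The library names carry the word Saline for CON-BDEV and Pilo for SE-BDEV, and are given here as written. The cells, shared by all groups, are labelled N2a, a mouse neuroblastoma line, in each of the 9 libraries, but the series' design text calls them BV2, a line of mouse microglia. The dose, the time of exposure and the animals behind the vesicles are not given in the sources used here. Nothing says whether the replicates were separate cultures, so the spread behind each p-value is that of these libraries alone and could be technical.

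Complement is a cascade of proteins that tag particles and cells for uptake. C1q recognises the target in the classical pathway and is built from A, B and C chains, which C1qa, C1qb and C1qc encode. Proteases then activate C3, the protein on which all activation routes meet, and its fragments mark the target and signal through receptors. In the brain, microglia are the main source of C1q, and C1q and C3 tag synapses that microglia remove during development and in disease.

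The C1q genes lie side by side. In mm9 coordinates, with starts counted from 1, C1qb occupies chromosome 4 from 136436061 to 136442092, C1qc from 136445717 to 136448829 and C1qa from 136451831 to 136454759, a span of 18699 bases with no other listed gene overlapping a member of the cluster. The bases before the start of C1qb and C1qc are shown because these neighbours moved together in the values below, and those of C3 because it moved in the same direction. Each run holds the 250 bases before the annotated start on the gene's strand, 5′ to 3′, from RefSeq on GRCm38.p6, a different build from that of the tables. Of the 9 members, 7 had an entry, and C1qa and Cfb had none. Capitals mark matches, on either strand, to any of 6 motifs: the MAF core TGCTGA, the PU.1 core GAGGAA, the C/EBP pattern TTGCNNAA, the antioxidant response element TGACNNNGC, the AP-1 pattern TGANTCA and the TATA box TATAAA.
C1qb (chr4:136886201-136886450, minus strand): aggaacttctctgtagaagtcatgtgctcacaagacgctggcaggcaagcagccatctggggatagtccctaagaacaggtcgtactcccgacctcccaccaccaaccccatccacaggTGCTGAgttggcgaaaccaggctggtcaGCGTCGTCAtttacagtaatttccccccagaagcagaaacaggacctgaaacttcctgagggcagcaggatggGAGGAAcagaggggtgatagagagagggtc
C1qc (chr4:136892915-136893164, minus strand): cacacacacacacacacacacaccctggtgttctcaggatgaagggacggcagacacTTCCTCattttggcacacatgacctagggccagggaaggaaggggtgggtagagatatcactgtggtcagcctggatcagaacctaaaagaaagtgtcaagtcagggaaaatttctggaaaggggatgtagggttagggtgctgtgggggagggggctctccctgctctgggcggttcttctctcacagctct
C3 (chr17:57228137-57228386, minus strand): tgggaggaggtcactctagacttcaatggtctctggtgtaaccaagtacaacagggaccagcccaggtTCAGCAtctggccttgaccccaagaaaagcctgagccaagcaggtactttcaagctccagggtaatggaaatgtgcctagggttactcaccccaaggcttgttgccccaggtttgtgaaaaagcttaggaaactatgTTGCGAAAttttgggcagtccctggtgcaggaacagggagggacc
The C1qb window held the MAF core, the PU.1 core and the antioxidant response element, on the opposite strand for the last. The C1qc window held the PU.1 core alone, on the opposite strand. The C3 window held the MAF core on the opposite strand and the C/EBP pattern. The MAF core also lay in windows not printed here, those of C5ar1, C3ar1 and Cd55. In the main tests below C5ar1 fell with CON-BDEV, C3ar1 did not pass and Cd55 was not tested. C1qc rose without the MAF core, so this motif was not particular to members that rose. The antioxidant response element also lay in the window of Cfp, which did not pass. Windows of the same length held the MAF core in 16.1% of 32851 promoters, the PU.1 core in 23.3%, the antioxidant response element in 10.2%, the C/EBP pattern in 9.56%, the AP-1 pattern in 6.75% and the TATA box in 12.4%. A match describes letters in a window and is not a bound site.

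The libraries carried macrophage transcripts, with 16 of 18 microglia and macrophage markers averaging 1 FPKM or more (fragments scaled to transcript length and library size), against 2 of 16 neuroblastoma and neuronal markers. Th, Dbh, Mycn, Hand2, Isl1 and Stmn2, which are among those that define neuroblastoma or neurons, were listed at 0 in every library. Depth was estimated from the smallest steps in the values and ran from 29196000 to 33786000 fragments per library. Of 10535 genes tested in each comparison with Vehicle, 401 rose and 196 fell with CON-BDEV, and 712 rose and 541 fell with SE-BDEV. The CON-BDEV calls split into 301 higher and 249 lower after quantile normalization. The summed level of the microglial markers was 4030 to 4184 FPKM in Vehicle, 4199 to 4463 in CON-BDEV and 4196 to 4591 in SE-BDEV, so both vesicle groups lay above Vehicle by a narrow gap. Cd68, Tyrobp, Ctss and Lyz2 had the highest means in this sum. Of its 16 markers tested, 4 rose and 1 fell with CON-BDEV, beside 5.67% of all genes called. With SE-BDEV 5 rose and 1 fell, beside 11.9%. The sum of the neuroblastoma and neuronal list, which Camk2a and Elavl4 make up almost wholly, was 17.0 to 17.8, 18.5 to 20.7 and 20.7 to 20.8 FPKM. The oligodendrocyte sum was 13.9 to 14.2 FPKM in Vehicle, 10.8 to 13.5 in CON-BDEV and 11.9 to 12.5 in SE-BDEV, and the astrocyte sum 44.9 to 46.0, 37.5 to 41.1 and 36.4 to 40.3 FPKM, nearly all from Aldoc. The endothelial sum, nearly all from Flt1, was 35.2 to 40.3, 35.8 to 44.2 and 42.5 to 47.1 FPKM. The part of these shifts in the complement results was not tested.

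In Vehicle the members spanned from 38.8 FPKM to a listed 0. C1qb averaged 38.8 ± 3.40 FPKM (SD, n = 3 for every group mean here) and C3 38.3 ± 2.25 FPKM, and their libraries overlapped. Cfp followed at 33.5 ± 2.40 FPKM, C3ar1 at 27.1 ± 1.55 FPKM and C1qc at 13.4 ± 1.55 FPKM, each without overlap with its neighbour in the order. C5ar1 averaged 1.69 ± 0.108 FPKM and C1qa 0.495 ± 0.298 FPKM. Cfb did not exceed 0.0372 FPKM in any of the 9 libraries, which is about 3.2 fragments, and Cd55 was listed at 0 in all of them. A listed 0 in these tables need not mean absence, since estimates can fail. The same order held in both vesicle groups down to C1qc, where C3ar1 and C1qc now overlapped, and C1qa then averaged above C5ar1, with overlapping libraries.

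**Figure D1:**
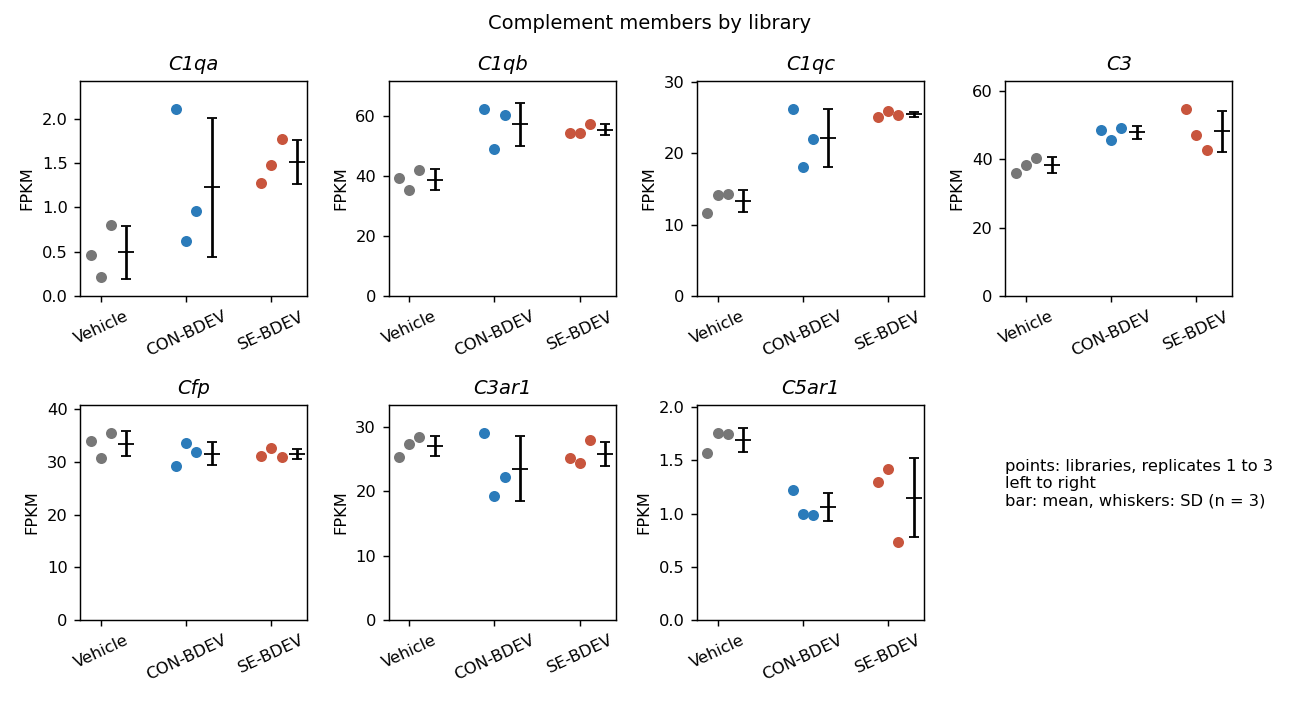
Expression in FPKM (vertical axes, from 0) of the 7 members that reached 1 FPKM in some library, by group on the horizontal axes; points are libraries, bars the mean and whiskers the SD (n = 3). C1qb, C1qc and C3 lie higher in both vesicle groups than in Vehicle without overlap, C5ar1 lies lower, and Cfp and C3ar1 overlap between groups.

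With CON-BDEV, C1qb, C1qc and C3 rose and C5ar1 fell, which made 4 of the 6 members that could be tested, against 5.67% of all genes tested (3.81% higher and 1.86% lower). With SE-BDEV, C1qa, C1qb, C1qc and C3 rose and no member fell, which made 4 of 7 tested, against 11.9% of all genes (6.76% higher and 5.14% lower). The tests were limma on log2(FPKM + 1) with Benjamini-Hochberg adjustment over all genes, and each difference below is on that scale, which understates the change of genes near 1 FPKM. C1qa entered the SE-BDEV test only because of its level in the vesicle group, so the counts of 6 and 7 are not counts of all members. Without C1qa, 3 of 6 members were called with SE-BDEV. The median difference over those 6 members was 0.12 with CON-BDEV and 0.12 with SE-BDEV, beside 0.01 and 0.00 over all genes tested. Both comparisons use the same Vehicle libraries. The members were chosen with earlier results of these data known, so these counts and medians, set beside all genes, are not independent support for a shift of the set. C1qb and C1qc are neighbours in the genome, and their calls are not taken as separate. Their correlation of 0.906 over the 9 libraries includes the group differences behind those calls, so it does not show how far they are linked apart from the vesicles.

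C1qb, the B chain, stood at 39.3, 35.2 and 41.9 FPKM in Vehicle replicates 1 to 3, at 62.2, 48.9 and 60.2 FPKM in CON-BDEV and at 54.3, 54.3 and 57.4 FPKM in SE-BDEV. Every vesicle library was above every Vehicle library. Such a gap, in either direction, was found for 29.3% of genes with CON-BDEV (16.6% higher and 12.7% lower) and 32.8% with SE-BDEV (16.5% higher and 16.3% lower). The mean was 1.47 times the Vehicle mean with CON-BDEV and 1.43 times with SE-BDEV. The difference was 0.54 ± 0.09 (SE) with CON-BDEV (limma adjusted p of 0.0151) and 0.50 ± 0.06 with SE-BDEV (limma adjusted p of 0.00122). Within libraries whose name carries the number 1 it was 0.73 with CON-BDEV and 0.53 with SE-BDEV, and within those numbered 2 it was 0.37 and 0.40, each from 1 or 2 libraries a group. The call with CON-BDEV did not pass when CON-BDEV replicate 3 (adjusted p of 0.0691), Vehicle replicate 1 (0.0604) or Vehicle replicate 2 (0.0657) was left out, or with no filter on low values (0.0754). The call with SE-BDEV passed without each of the 6 libraries, with a highest adjusted p of 0.0072.

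C1qc, the C chain, stood at 11.6, 14.2 and 14.3 FPKM in Vehicle, at 26.2, 18.2 and 22.01 FPKM in CON-BDEV and at 25.1, 25.9 and 25.4 FPKM in SE-BDEV. Both vesicle groups lay wholly above Vehicle, as did 16.6% of all genes with CON-BDEV and 16.5% with SE-BDEV. The SE-BDEV libraries lay close together whereas CON-BDEV replicate 2 was the lowest vesicle library. C1qc reached 1.65 times the Vehicle mean with CON-BDEV and 1.90 times with SE-BDEV, a larger ratio than that of C1qb in each. The difference was 0.68 ± 0.12 with CON-BDEV (limma adjusted p of 0.0186) and 0.88 ± 0.07 with SE-BDEV (limma adjusted p of 0.000124). It was 0.97 and 0.91 within libraries numbered 1, and 0.46 and 0.80 within those numbered 2, with CON-BDEV and SE-BDEV in turn. The CON-BDEV call did not pass without CON-BDEV replicate 3 (adjusted p of 0.0755) or without Vehicle replicate 1 (0.0748), 2 (0.0585) or 3 (0.0592), or with no filter on low values (0.0867). The SE-BDEV call passed in all 6 such fits, with a highest adjusted p of 0.0012.

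C1qa, the A chain, was far lower than its neighbours, at 0.469, 0.211 and 0.805 FPKM in Vehicle, 2.11, 0.617 and 0.961 FPKM in CON-BDEV and 1.28, 1.48 and 1.77 FPKM in SE-BDEV. CON-BDEV overlapped with Vehicle, through its replicate 2, and SE-BDEV lay wholly above Vehicle, as did 16.5% of all genes. About 7.4 to 26.2 fragments stood behind the Vehicle values and 18.7 to 68.4 behind those of the vesicle groups, with a transcript of 1040 bases. With SE-BDEV the difference was 0.76 ± 0.14 (limma adjusted p of 0.011) and the mean 3.06 times that of Vehicle. In the fit of all 9 libraries the adjusted p for SE-BDEV was 0.0544, with no filter on low values it was 0.0463, without any 1 SE-BDEV library the gene missed the filter, and without any 1 Vehicle library it still passed. With CON-BDEV the mean over the 6 libraries was under the filter of 1 FPKM. With no filter the difference there was 0.54 (95% interval -0.10 to 1.17, limma adjusted p of 0.342), with 1.22 within libraries numbered 1 and -0.02 within those numbered 2. In the authors' deposited table, by Cuffdiff, C1qa had a log2 fold change of 1.31 with CON-BDEV (q of 0.0111) and 1.61 with SE-BDEV (q of 0.00196).

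The chains were thus unequal at the transcript level, although the protein holds them in equal numbers. C1qb made up 70.9% to 76.5% of the summed C1q FPKM in Vehicle and C1qa 0.425% to 1.41%. C1qa was 0.6% to 1.92% of C1qb in Vehicle, 1.26% to 3.39% in CON-BDEV and 2.36% to 3.09% in SE-BDEV. For C1qc the level relative to C1qb was 0.295 to 0.405 in Vehicle, 0.366 to 0.421 in CON-BDEV and 0.442 to 0.477 in SE-BDEV, where every library exceeded those of the other groups. This ratio was not tested, and how often ratios of other genes separate these groups was not counted. C1qb and C1qc each overlapped between the preparations, and neither passed there (limma adjusted p of 0.999 for each). The summed C1q level was 52.7 ± 3.88 FPKM in Vehicle, 80.5 ± 11.7 in CON-BDEV and 82.3 ± 2.05 in SE-BDEV. Cx3cr1 and P2ry12, which mark microglia of the brain, did not exceed 0.201 and 0.0421 FPKM in any library. Fewer cells that express a gene and less of its RNA per cell cannot be told apart in bulk libraries.

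C3, the protein on which the activation routes meet, stood at 36.0, 38.4 and 40.5 FPKM in Vehicle, at 48.7, 45.8 and 49.2 FPKM in CON-BDEV and at 54.7, 47.1 and 42.7 FPKM in SE-BDEV. Both vesicle groups lay above Vehicle without overlap, as did 16.6% of all genes with CON-BDEV and 16.5% with SE-BDEV. SE-BDEV replicate 3 was the lowest of the vesicle libraries. The difference was 0.32 ± 0.05 with CON-BDEV (limma adjusted p of 0.0143) and 0.32 ± 0.08 with SE-BDEV (limma adjusted p of 0.0356), or 1.25 and 1.26 times the Vehicle mean. With CON-BDEV it did not pass without CON-BDEV replicate 3 (adjusted p of 0.0633), Vehicle replicate 1 (0.0712) or Vehicle replicate 2 (0.0652). With SE-BDEV it passed without SE-BDEV replicate 3 but not without SE-BDEV replicate 1 (0.0582) or 2 (0.0726) or without Vehicle replicate 1 (0.134), 2 (0.0959) or 3 (0.0611). It also failed with no filter on low values, with CON-BDEV (0.0566) and with SE-BDEV (0.116), and without the mean-variance trend with SE-BDEV (0.0622). With SE-BDEV it was 0.54 within libraries numbered 1 and 0.14 within those numbered 2, and with CON-BDEV 0.38 and 0.22. The locus of C3, chromosome 17 from 57343390 to 57367559 in mm9, also holds the listed microRNA gene Mir6978.

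Cfp encodes properdin, which stabilises the convertase of the alternative pathway. It stood at 34.0, 30.9 and 35.6 FPKM in Vehicle, at 29.2, 33.6 and 31.9 FPKM in CON-BDEV and at 31.1, 32.6 and 30.9 FPKM in SE-BDEV, and all groups overlapped. The difference was -0.08 with each preparation (95% interval -0.23 to 0.07 with CON-BDEV and -0.20 to 0.04 with SE-BDEV; limma adjusted p of 0.485 and 0.367). Cfb, the protease of the alternative pathway, had at most 3.2 estimated fragments in a library, and Cd55, which speeds the decay of convertases on the cell's own surface, was listed at 0, so neither reached the filter. With no filter the difference of Cfb was 0.0056 with CON-BDEV and 0.018 with SE-BDEV (limma adjusted p of 0.882 and 0.599). Cd55 has a close neighbour copy, Cd55b, which was also listed at 0 in all 9 libraries, and reads shared between copies can be split in counting.

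C3ar1 and C5ar1 encode receptors for the anaphylatoxins, small fragments released when complement is cleaved. C5ar1, the receptor for C5a, stood at 1.57, 1.76 and 1.75 FPKM in Vehicle, at 1.22, 0.993 and 0.984 FPKM in CON-BDEV and at 1.30, 1.42 and 0.73 FPKM in SE-BDEV. Every vesicle library was below every Vehicle library, as was found for 12.7% of all genes with CON-BDEV and 16.3% with SE-BDEV. The difference was -0.38 ± 0.08 with CON-BDEV (limma adjusted p of 0.0356) and -0.34 ± 0.12 with SE-BDEV (limma adjusted p of 0.114), and the mean was 0.629 and 0.68 times that of Vehicle. The CON-BDEV call passed without CON-BDEV replicate 1 but not without CON-BDEV replicate 2 (adjusted p of 0.0553) or 3 (0.122), nor without Vehicle replicate 1 (0.102), 2 (0.138) or 3 (0.122). It also failed with no filter on low values (0.0566), with quantile normalization (0.0502), with a block for the library-name number (0.0838) and in the fit of all 9 libraries (0.0769). Without SE-BDEV replicate 3 the difference with SE-BDEV was -0.19 (adjusted p of 0.202). The difference was -0.26 and -0.21 within libraries numbered 1 and -0.47 and -0.43 within those numbered 2, with CON-BDEV and SE-BDEV in turn. The authors' deposited table gave q of 0.00446 with CON-BDEV and 0.00918 with SE-BDEV. About 60.8 to 151.1 fragments stood behind each value.

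C3ar1, the receptor for C3a, stood at 25.4, 27.4 and 28.4 FPKM in Vehicle, at 29.1, 19.3 and 22.2 FPKM in CON-BDEV and at 25.1, 24.4 and 27.9 FPKM in SE-BDEV. CON-BDEV replicate 1 was the highest of all libraries and replicates 2 and 3 the lowest of all. The difference with CON-BDEV was -0.21 (95% interval -0.49 to 0.06, limma adjusted p of 0.324), and without CON-BDEV replicate 1 it was -0.37 and passed (adjusted p of 0.0168), whereas without CON-BDEV replicate 2 it was -0.087 (0.633). Within libraries numbered 1 it was 0.14 and within those numbered 2 it was -0.44. With SE-BDEV the difference was -0.07 (95% interval -0.20 to 0.07, limma adjusted p of 0.5).

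**Figure D2:**
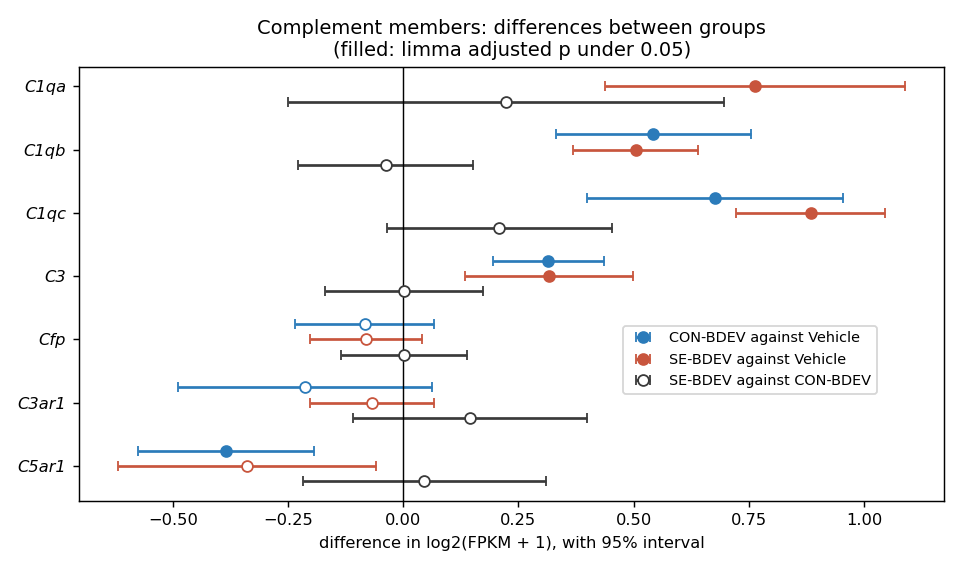
Differences in log2(FPKM + 1) between groups (horizontal axis) with 95% intervals from limma, for 7 members; filled circles have an adjusted p under 0.05. The intervals of C1qb, C1qc and C3 lie above 0 against Vehicle for both preparations, and every interval for SE-BDEV against CON-BDEV spans 0.

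**Figure D3:**
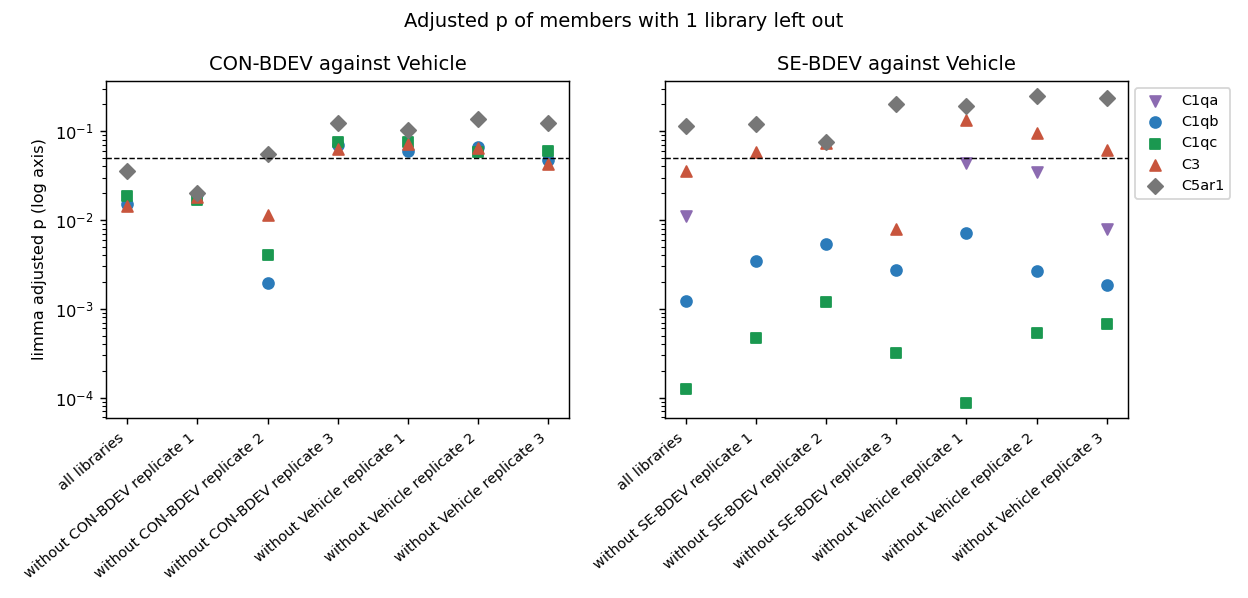
Limma adjusted p (vertical log axis) of 5 members with all libraries and with each library left out in turn (horizontal axis); the dashed line is 0.05, and a missing point means that the gene missed the filter. With SE-BDEV, C1qb and C1qc stay below the line in every fit, whereas with CON-BDEV no member does.

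By the authors' Cuffdiff test, in the authors' deposited table, 7 members were tested in each comparison. Of them, 4 were higher and 1 lower with CON-BDEV at a q under 0.05, against 4.32% of all genes that Cuffdiff tested. With SE-BDEV 4 were higher and 1 lower, against 5.36%. The members called were the C1q chains, C3 and C5ar1 in each. The limma counts differ from these in C1qa with CON-BDEV, which missed the filter, and in C5ar1 with SE-BDEV.

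SE-BDEV against CON-BDEV, which asks whether vesicles named for status epilepticus acted otherwise than control vesicles, gave no call among the 7 members tested by limma. None had an unadjusted p under 0.05 either. Across all 10532 genes 0 passed, which is 0% of them, and 509 had an unadjusted p under 0.05. C1qc was nearest, with 25.4 ± 0.405 FPKM against 22.1 ± 4.02 FPKM and a difference of 0.21 (95% interval -0.04 to 0.45, unadjusted p of 0.0875, adjusted p of 0.999). For C1qb the difference was -0.04 (-0.23 to 0.15), for C1qa 0.22 (-0.25 to 0.70), for C3 0.00 (-0.17 to 0.17) and for Cfp 0.00 (-0.13 to 0.14). For the receptors C3ar1 and C5ar1 it was 0.15 (-0.11 to 0.40) and 0.05 (-0.22 to 0.31). None of the members separated the preparations without overlap, as 7.94% of all genes did (2.74% higher and 5.19% lower in SE-BDEV). Within libraries numbered 1 the difference was -0.45 for C1qa, -0.19 for C1qb, -0.06 for C1qc, 0.17 for C3, -0.20 for C3ar1 and 0.09 for Cfp. Within those numbered 2 each had the opposite sign, at 0.56, 0.04, 0.34, -0.08, 0.32 and -0.04, so for these 6 members the sign differed between the numbers, with 1 library a group in the first and 2 in the second. For C5ar1 it was 0.05 and 0.04. The CON-BDEV libraries spread more widely than those of SE-BDEV for C1qa, C1qb, C1qc, C3ar1 and Cfp, and less widely for C3 and C5ar1.

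The lists held 51 further complement genes, of which 14 reached the filter, and with CON-BDEV 1 of them rose and 0 fell, while with SE-BDEV 3 rose and 1 fell, beside 5.67% and 11.9% of all genes called. Their median difference was 0.03 and 0.06, beside 0.01 and 0.00 over all genes. Among receptors for C1q and C3 fragments, Calr, a chaperone that also binds C1q at the cell surface, rose from 689 ± 48.8 FPKM to 886 ± 107 FPKM with CON-BDEV (0.36, limma adjusted p of 0.0441) and to 876 ± 45.6 FPKM with SE-BDEV (0.35, limma adjusted p of 0.00567). Itgam, the alpha chain of complement receptor 3, rose with SE-BDEV by 0.13 (limma adjusted p of 0.0427) and differed by 0.07 with CON-BDEV (0.369). Itgax, the alpha chain of complement receptor 4, differed by 0.20 and 0.16 (limma adjusted p of 0.0858 and 0.116), and Itgb2, the beta chain of both receptors, by -0.06 and -0.09 (0.433 and 0.155).

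Among initiating components Fcnb, a ficolin of the lectin pathway, stood at 2.15, 1.77 and 1.89 FPKM in Vehicle, at 2.36, 2.78 and 3.64 FPKM in CON-BDEV and at 3.54, 3.74 and 3.27 FPKM in SE-BDEV. All vesicle libraries were above all Vehicle libraries, as for 16.6% of all genes with CON-BDEV and 16.5% with SE-BDEV. Fcnb rose with SE-BDEV (0.62, limma adjusted p of 0.00133) and differed by 0.41 with CON-BDEV (0.0759). C4b, a component cleaved by the C1 proteases, fell with SE-BDEV from 2.56 ± 0.133 to 1.99 ± 0.064 FPKM (-0.25, limma adjusted p of 0.0442) and differed by -0.16 with CON-BDEV (0.257). C4a, its near-identical neighbour, averaged 0.298 FPKM in Vehicle, and the split of reads between the copies is uncertain. C1ra, a protease of the C1 complex with a close copy in C1rb, differed by -0.14 and -0.16 (limma adjusted p of 0.408 and 0.21). The classical proteases C1s1, C1s2 and C2 stayed under 0.2 FPKM in every library. C1rl, a relative of C1r, averaged 0.708, 0.418 and 0.544 FPKM in Vehicle, CON-BDEV and SE-BDEV, under the filter, and the authors' deposited table gave it q of 0.0229 with CON-BDEV and 0.328 with SE-BDEV. The protease Cfd, C1rb and the terminal components C7, C8a and C8b were listed at 0 in all 9, and Hc, which encodes C5, did not exceed 0.0112 FPKM.

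Of the 15 regulators in the tables, Clu, which blocks the terminal complex, at 114 ± 2.54 FPKM in Vehicle, and Cr1l, the rodent C3 convertase inhibitor also known as Crry, at 15.2 ± 0.53 FPKM, reached the filter. Clu differed by 0.10 and 0.12 (limma adjusted p of 0.246 and 0.0927) and Cr1l by 0.12 and 0.10 (0.194 and 0.179) with CON-BDEV and SE-BDEV. Of 8 transcription factors tied to C1q genes in macrophages, 6 reached the filter, 0 rose, and 1 fell with SE-BDEV while 0 fell with CON-BDEV, again beside 11.9% and 5.67% of all genes called. Nr1h3, the lipid-sensing receptor LXR alpha, was the one that fell, from 4.61 ± 0.0777 to 3.83 ± 0.0755 FPKM (-0.22, limma adjusted p of 0.0332), and it differed by -0.22 with CON-BDEV (0.0778).

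**Figure D4:**
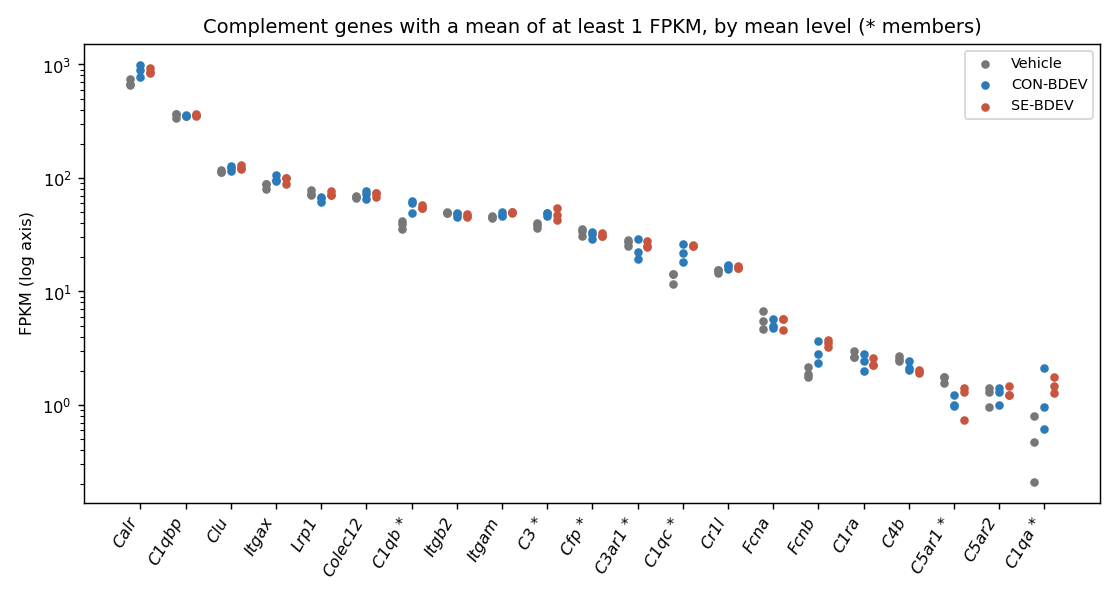
Level in FPKM (vertical log axis) of the 21 complement genes that average 1 FPKM or more over 9 libraries, ordered by mean; points are libraries, coloured by group, and stars mark the members. C1qb and C3 lie beside the integrin chains Itgam and Itgb2, and C1qa is the lowest of those shown.

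Over the 9 libraries and on the log2 scale, the genes with a pattern most like the mean of the C1q chains were Usp37 (Pearson r of 0.991), Pdia3 (0.991), Slc31a1 (0.978), Srprb (0.977) and Wdr77 (0.975), of 9998 ranked. Usp37, a deubiquitinating enzyme, averaged 8.39, 8.99 and 9.14 FPKM in Vehicle, CON-BDEV and SE-BDEV, and Pdia3, a disulfide isomerase of the endoplasmic reticulum, 323, 387 and 395 FPKM. For C5ar1 the 5 most alike included Chtf8 (0.93), Ascc3 (0.916), Brca2 (0.904) and Abca1 (0.896). Abca1, the cholesterol exporter, averaged 35.9, 25.3 and 26.04 FPKM. Among members, C1qb correlated with C1qc at 0.906, with C1qa at 0.876 and with C3 at 0.80, and with C5ar1 at -0.74. These correlations describe 9 libraries in 3 groups, include the differences between the groups and carry no test.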

How the data were processed

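TopHat2, Cuffdiff and the build mm9 are named in the submitters' processing notes; versions and annotation are not given in the sources used here. The FPKM tables deposited by the authors hold 1 value per gene and library, with 1 table for each vesicle preparation and the same 3 Vehicle libraries in both. The deposited Cuffdiff tables give the group means, a log2 fold change against Vehicle, Cuffdiff's test score, and its p-value and q-value, per the file headers. The tables were joined by dividing SE-BDEV values by 1.00044, the geometric mean ratio of the shared Vehicle libraries. Levels are from the joined table, and comparisons with Vehicle were fitted within their own table.

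Genes averaging 1 FPKM or more in the fitted libraries were tested on log2(FPKM + 1) in limma 3.58.1 under R 4.3.3 (trend in eBayes, 2-sided, Benjamini-Hochberg, threshold 0.05). Genes with too many fragments for Cuffdiff (Fth1, and Ftl1 in the CON-BDEV table) were left out. SE-BDEV against CON-BDEV used all 9 libraries. Depth came from 60 long genes with 1 transcript in GENCODE M21 and steps of whole fragments, and counts of fragments are estimates. An exact permutation test of 3 against 3 libraries has 0.1 as its smallest 2-sided p, and limma, which shares the spread over genes, was used instead. On simulated data, genes were changed against Vehicle on the scale of FPKM + 1, so genes near 1 FPKM changed by more in FPKM. Of those changed 1.5-fold, 82.0% (CON-BDEV, 10535 genes) and 94.0% (SE-BDEV, 10535 genes) were recovered, and 40.0% and 64.0% of those changed 1.2-fold. Each rate rests on 50 changed genes. The simulated fits also drew the shared spread from genes under 1 FPKM, which the reported tests left out. Only afterwards were the tested genes kept and adjusted. The simulated noise was independent for each gene, without shifts shared by a whole library. Recovery by the reported tests in the real libraries can therefore differ.

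The members, the gene lists and the motifs were chosen with earlier results of these data known. All 9 members are named. Of the other lists, genes past the threshold are named, or up to 2 with the highest mean where none passes, and the 5 genes most like the C1q mean and C5ar1. Further genes (Itgax, Itgb2, C1ra, C1rl and those named for low levels) were chosen after their values were seen. A few genes that these rules pick are not reported here. Replicate numbers showed no pairing: 3 of 9 same-number pairs had a correlation of deviations over 0.1. The alternatives tried were another pseudocount, other filters, quantile normalization, blocks, no trend, other sets of libraries in the fit and leaving out each library.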

Additional observations from a re-analysis of the deposited data

How the results depend on the processing

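The number of members called with CON-BDEV was 4, and 0 with no filter on low values, where 15334 genes shared the fit and the adjustment. Without the filter the unadjusted limma p rose for C1qb (0.000252 to 0.00188), C1qc (0.000367 to 0.00277) and C3 (0.000229 to 0.000741). For C5ar1 it fell (0.00141 to 0.000712). With 1 library left out the number called with CON-BDEV ran from 0 to 5 (0 without CON-BDEV replicate 3, Vehicle replicate 1 or Vehicle replicate 2, and 2 without Vehicle replicate 3). With SE-BDEV it was 4, and 2 to 3 with 1 library left out. Over all genes, the CON-BDEV calls numbered 597, against 112 with no filter, 364 with the replicate number as a block, 275 with a block for the number in the library name and 84 to 1067 with 1 library left out, and those of SE-BDEV 1253, against 726 with no filter, 830 in the fit of all 9 libraries and 501 to 1311 with 1 left out. With the replicate number as a block, 3 members were called in each comparison with Vehicle and 0 between preparations. C5ar1 (adjusted p of 0.0832 with CON-BDEV) and C3 (0.0501 with SE-BDEV) no longer passed, and no other member's call changed with that block. The library-name block lost C5ar1 with CON-BDEV (0.0838). C1qa with SE-BDEV had an adjusted p of 0.0544 in the fit of all 9 libraries, and C3 with SE-BDEV 0.116 with no filter and 0.0622 without the trend. The cause of these changes was not tested. No member changed direction against Vehicle in any alternative run. Between preparations, direction turned with 1 library left out for C1qb (-0.14 to 0.027), C3 (-0.092 to 0.084), C5ar1 (-0.048 to 0.20) and Cfp (-0.051 to 0.046), none of which passed the threshold in any fit. C1qa and Cfb rest on few fragments, 7.4 to 68.4 and 0 to 3.2 a library.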
